A study of Homo sapiens with 30 samples.

Results

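Small RNA was compared between U-87 MG lines whose induced LARP6 variant lacked the La-module and lines whose variant carried it. The members were the genes of the GENCODE small RNA types with at least 50 counts in each of the 5 libraries compared, 222 of 62750 gene rows and of 1318 small RNA genes with any count. They were 172 miRNA, 33 snoRNA and 4 scaRNA genes, 4 mitochondrial tRNAs, 7 genes typed as misc_RNA (the Y RNAs RNY1 and RNY3, 3 further Y RNA copies, VTRNA1-1 and VTRNA1-2), VTRNA2-1, typed as vault RNA, and RMRP, typed as ribozyme. The members held 97.5 to 98.2% of the counts in genes of these libraries. At the edge of the threshold, SNORA58 had a lowest count of 50 and MIR758 and MIR3661 of 51, while MIR190A and MIR3128 had 49 and MIR323A 48 and were left out.

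The U-87 MG cell line was established from a human glioblastoma. Each line held a doxycycline-inducible lentiviral construct for a myc-tagged, codon-optimised LARP6 variant, selected with puromycin, and was given 60 ng/mL doxycycline for 24 h. The lacking lines expressed ΔLa-module, which has no La-module, and ΔNTD, which has neither the La-module nor the disordered N-terminal region (NTR) before it. The carrying lines expressed the full-length protein (FL), ΔNTR, and ΔCTR, which has no C-terminal region. All 5 lines kept their own LARP6 gene, so "lacking" describes the induced protein alone. Annotated LARP6 gave 51.6 to 74.7 CPM (counts scaled to a common library size) in the long RNA libraries of these lines, a value that does not check the labels because the induced coding sequence is codon-optimised. Each line had 1 library of 50 nt reads from rRNA-depleted RNA, called SE50, with 6181270 to 9326702 counts in genes. The sample labels call these libraries small RNA sequencing. For longer RNAs, such as RMRP (264 nt) and RNY1 (113 nt), 50 nt reads do not tell the whole RNA from fragments of it. Their CPM are thus levels of reads, not of full RNAs. The 2 lacking and 3 carrying libraries are therefore separate lines with different proteins. The p-values rest on the spread between lines, with the variance of each gene drawn toward that of other genes. The median total degrees of freedom were 30.95, from 5 libraries. The SEs, p-values and intervals thus rest mostly on this shared variance, and can be narrower than a gene's own 5 values would give.

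La-related proteins share the La-module, a pair of folded domains named after the La protein. La itself holds the uridine tail at the 3′ end of new RNA polymerase III transcripts such as Y RNAs and tRNA precursors. LARP6 is instead known for binding collagen mRNAs. A miRNA is cut from a hairpin precursor and recognises mRNAs mainly through its seed, bases 2 to 8. Box C/D snoRNAs guide 2′-O-methylation of rRNA, and box H/ACA snoRNAs guide pseudouridylation.

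The mature sequences below are from RefSeq on GRCh38.p14, with the seed in capitals. They are those of some of the most counted miRNAs, of some with low p-values, and of others named from the family and marker lists described further below. Of the 172 miRNA genes, 164 matched the RefSeq table. Counts per gene do not separate the 5p and 3p arms of a hairpin, and 17 of the matched genes share a mature sequence with another locus, so reads of that sequence were partly or wholly lost as multimapping. The miR-100 seed was shared by 3 of these miRNAs, all among the 10 most counted members.
miR-100-5p: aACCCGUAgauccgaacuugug
miR-99a-5p: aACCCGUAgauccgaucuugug
miR-99b-5p: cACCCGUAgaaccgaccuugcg
The neighbours miR-221 and miR-222 also share a seed, as do the let-7 members let-7g and let-7e.
miR-221-3p: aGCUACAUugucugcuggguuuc
miR-222-3p: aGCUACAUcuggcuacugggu
let-7g-5p: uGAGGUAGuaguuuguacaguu
let-7e-5p: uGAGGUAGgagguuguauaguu
Sequences of miRNAs that were lower in both lacking lines than in any carrying line are miR-590, with both arms, miR-369, miR-411, miR-454 and miR-30a.
miR-590-5p: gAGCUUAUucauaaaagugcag
miR-590-3p: uAAUUUUAuguauaagcuagu
miR-369-3p: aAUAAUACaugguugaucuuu
miR-411-5p: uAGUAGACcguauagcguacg
miR-454-3p: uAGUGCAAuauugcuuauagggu
miR-30a-5p: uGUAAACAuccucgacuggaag
Of the miRNA genes that were higher in both lacking lines than in any carrying line, miR-130b, miR-219a, miR-615, miR-125b and miR-200c are given. The printed miR-219a and miR-125b have 2 loci each, so the counts of MIR219A1 and MIR125B1 need not come from these sequences. The seed of miR-130b was that of miR-454 above, which lay on the other side.
miR-130b-3p: cAGUGCAAugaugaaagggcau
miR-219a-5p: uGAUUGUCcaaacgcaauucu
miR-615-3p: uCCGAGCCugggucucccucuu
miR-125b-5p: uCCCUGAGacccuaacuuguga
miR-200c-3p: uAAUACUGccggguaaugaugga

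No small RNA gene was called higher or lower in the lacking lines. The test was edgeR's quasi-likelihood test over all 3051 genes tested in these libraries, of which 0.0% were called higher and 0.0% lower at a Benjamini-Hochberg adjusted p under 0.05, and DESeq2 called none either. At an unadjusted p under 0.05 there were 4 members by edgeR and also 4 by DESeq2, against 86 of all genes tested (2.82%) by edgeR and 26 (0.852%) by DESeq2. The members' share, 1.8% by either tool, was thus below the background of edgeR and above that of DESeq2. The smallest adjusted p of a member was 0.999 in the edgeR test. The log2 differences, lacking minus carrying, ran from -0.74 to 1.14, with a median of -0.05 beside -0.01 over all genes tested. They were above 0 for 95 members and below 0 for 127. The 95% interval lay within a 2-fold difference either way for 184 members and reached past it for 38, so a 2-fold difference could not be set aside for the latter. In simulated counts the edgeR test recovered 20% of members changed 2-fold, so the lack of calls does not show a lack of change.

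**Figure D1:**
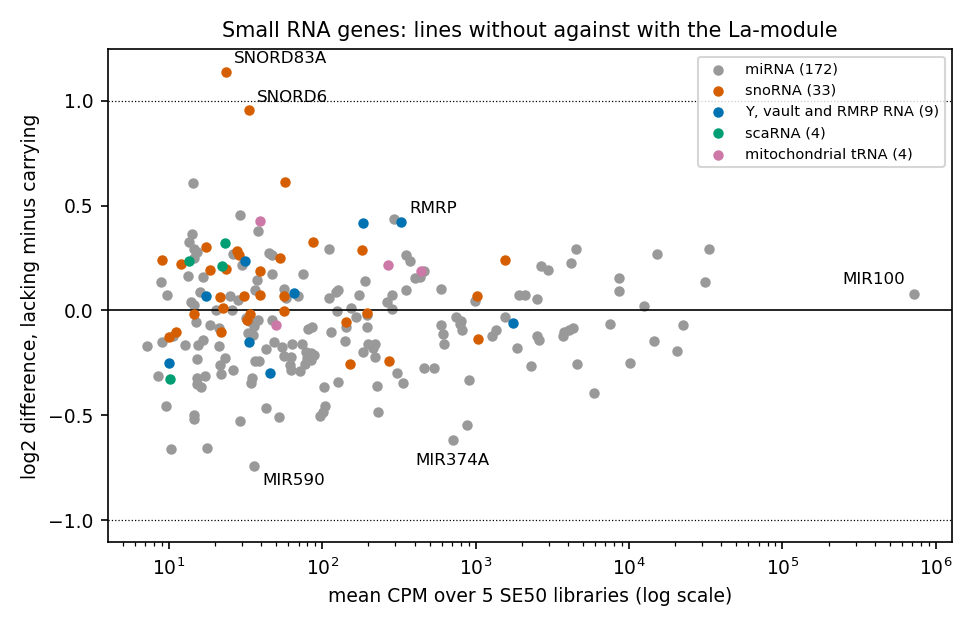
Log2 difference of TMM-scaled CPM, lacking minus carrying lines (vertical axis), against mean CPM of the 5 SE50 libraries (horizontal, log scale), 1 point per gene, coloured by class. Dotted lines mark a 2-fold difference. All genes but SNORD83A lie between them, and MIR100 stands alone at the right.

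Groups that do not overlap were counted as well. Every lacking line was above every carrying line for 13 members (5.86%, beside 8.1% of all genes tested). Every lacking line was below every carrying line for 14 members (6.31%, beside 9.11% of all genes tested). Both shares were under the background with this scaling. By library totals alone, 22 members were below (9.91%, beside 9.01% of all genes) and 6 above (2.7%, beside 5.67%), and with only genes of 50 counts in each library kept, 24 were above (10.8%, beside 10.5%) and 11 below (4.95%, beside 4.92%). All 14 of the lower members were miRNAs, 8.14% of the 172 miRNA genes, beside 9.11% of all genes tested. The 13 higher members were 7 miRNAs, the box C/D snoRNAs SNORD41, SNORD59A and SNORD104, the Cajal body RNA SCARNA3, RNY1 and RMRP. Over classes, the median log2 difference was -0.09 for miRNA genes, of which 63 were above 0 and 109 below, and 0.08 for the 50 other members, of which 32 were above 0 and 18 below.

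Among the members with the lowest unadjusted p, the highest differences were those of box C/D snoRNAs. SNORD83A (chr22:39315213-39315307, minus strand), in the gene of the ribosomal protein RPL3, had 51.6 CPM in ΔNTD and 17.9 in ΔLa-module, against 13.7 in FL, 18.2 in ΔNTR and 15.8 in ΔCTR. ΔNTD alone stood apart, and ΔLa-module lay within the range of the carrying lines. The log2 difference was 1.14 ± 0.35 (SE; unadjusted p = 0.0030 and adjusted p = 0.999, edgeR, 2 against 3 libraries). SNORD6 (chr11:93731502-93731574, minus strand), in TAF1D, had 69.6 CPM in ΔNTD and 23.3 in ΔLa-module, against 18.7 in FL, 16.7 in ΔNTR and 36.8 in ΔCTR. Here too ΔNTD was the high line and the groups overlapped, with a log2 difference of 0.96 ± 0.38 (SE; unadjusted p = 0.017 and adjusted p = 0.999, edgeR). With ΔNTD left out the differences were 0.18 for SNORD83A and -0.03 for SNORD6. With ΔLa-module left out they were 1.67 and 1.51, and then rested on the 1 ΔNTD library.

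SNORD41 (chr19:12706449-12706518, minus strand), in TNPO2, was the snoRNA with the lowest p whose groups did not overlap. It had 63.1 CPM in ΔLa-module and 80.6 in ΔNTD, against 42.8 in FL, 49.3 in ΔNTR and 49.2 in ΔCTR. Both lacking lines lay above all carrying lines, with a log2 difference of 0.61 (95% interval -0.01 to 1.23, unadjusted p = 0.052, edgeR). It did not pass the test.

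On the lower side, MIR590 (chr7:74191198-74191294, plus strand), within EIF4H, had 22.7 CPM in ΔLa-module and 28.1 in ΔNTD, against 29.7 in FL, 46.6 in ΔNTR and 51.6 in ΔCTR. FL was close to the lacking lines, and the log2 difference was -0.74 ± 0.33 (SE; unadjusted p = 0.031 and adjusted p = 0.999, edgeR). MIR374A (chrX:74287286-74287357, minus strand), within the lncRNA gene FTX, had 623 CPM in ΔLa-module and 447 in ΔNTD, against 688 in FL, 933 in ΔNTR and 845 in ΔCTR. All carrying lines were above both lacking lines, with a log2 difference of -0.62 ± 0.30 (SE; unadjusted p = 0.046 and adjusted p = 0.999, edgeR). MIR369 had 8.93 and 6.35 CPM in ΔLa-module and ΔNTD and 11.1 to 12.5 in the carrying lines, with a log2 difference of -0.66. MIR16-1, whose mature sequence has a second locus, had 9.87 and 16.4 CPM against 12.4 in FL, 26.7 in ΔNTR and 23.8 in ΔCTR, so the groups overlapped.

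**Figure D2:**
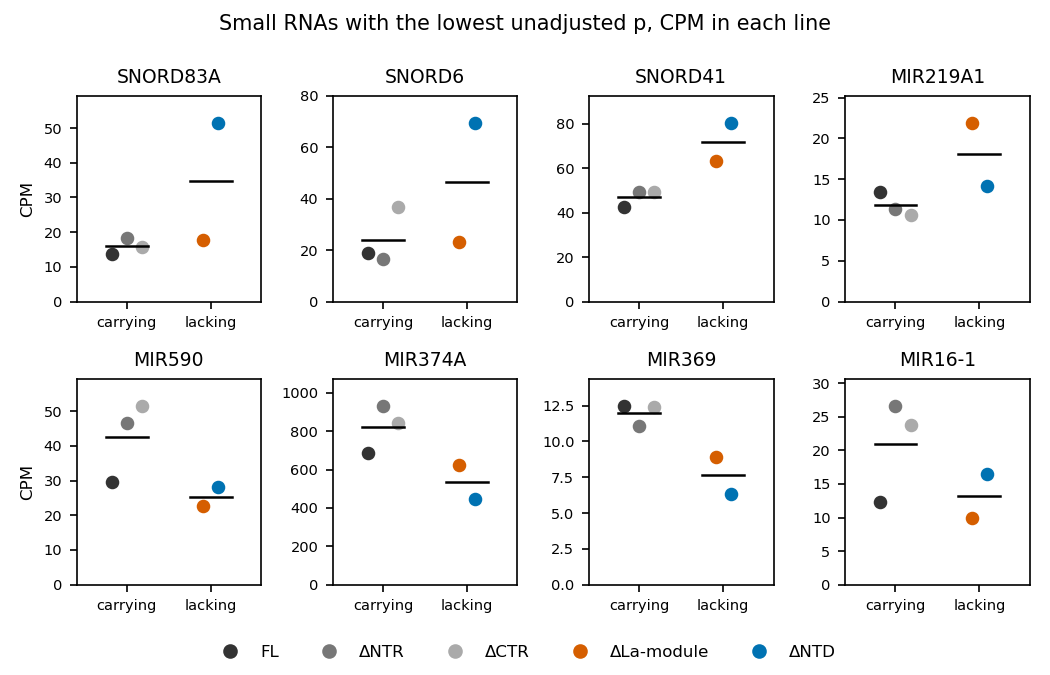
CPM (TMM-scaled, vertical axes from 0) of 8 small RNAs in each of the 5 lines, 1 point per library, with black bars for group means. In SNORD83A and SNORD6 the ΔNTD point alone is high, while in SNORD41, MIR219A1, MIR590, MIR374A and MIR369 the groups are separate.

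The other members named by their low p on the higher side were MIR219A1, MIR130B, MIR615, MIR505, MIR222, MIR125A, RMRP, RNY1 and the mitochondrial leucine tRNA MT-TL1. Their log2 differences ran from 0.29 to 0.61. MIR219A1 had 21.9 CPM in ΔLa-module and 14.2 in ΔNTD against 10.5 to 13.4 in the carrying lines. MIR130B had 336 and 356 CPM against 184 to 316. MIR615, which lies in HOXC4, had 34.8 and 34.5 CPM against 22.5 to 30.3. The groups of these 3 miRNAs were separate. Those of MT-TL1 were not, since it had 29.9 and 62.5 CPM in ΔLa-module and ΔNTD and 19.6 to 47.3 in the carrying lines.

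The other members named on the lower side were MIR136, MIR145, MIR26A2, MIR30B, MIR411, MIR454, MIR542 and MIR598, with log2 differences from -0.55 to -0.46. MIR411 and MIR136, like MIR369, lie in the imprinted miRNA region of chromosome 14. MIR411 had 47.2 CPM in ΔLa-module and 36.0 in ΔNTD against 56.7 to 61.2 in the carrying lines. MIR542 had 97.1 and 58.4 CPM against 101 to 120. In parental cells, which held no variant and were scaled with all 6 libraries, MIR411 had 114 CPM and MIR369 had 22.9, above all 5 induced lines. Parental cells entered neither group.

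Runs of at least 3 members within 10 kb were described together. MIR379, MIR411, MIR758 and MIR494 (chr14:101022066-101029714, plus strand) had a median log2 difference of -0.33, and all 4 were below 0. ΔNTD was the lowest line for 3 of the 4. MIR450B, MIR542, MIR503 and MIR424 (chrX:134540185-134546711, minus strand) had a median of -0.21, also with all 4 below 0 and ΔNTD lowest for 3. In both runs ΔLa-module was close to FL, with median differences of -0.04 and -0.01, and ΔNTD was below ΔNTR, with -0.60 and -0.61. MIR25, MIR93 and MIR106B, all within MCM7 and with MIR93 overlapping an annotated exon of it, had a median of 0.06. MIR99B, MIRLET7E and MIR125A had a median of 0.27, with MIRLET7E at -0.08. The other two runs were MIR182, MIR96 and MIR183, with a median of -0.03, and MIR532, MIR500A, MIR362, MIR501 and MIR660, with a median of -0.12 and 4 of 5 below 0.

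The most counted miRNA was MIR100 (chr11:122152229-122152308, minus strand), within MIR100HG. Its share of all counts was 73.6% in ΔLa-module and 67.6% in ΔNTD, against 75.5% in FL, 65.8% in ΔNTR and 68.3% in ΔCTR. Lacking lines averaged 70.6 ± 4.26% (SD, n = 2) and carrying lines 69.9 ± 5.04% (SD, n = 3), and the groups overlapped (exact permutation test, two-sided, p = 1.0). The design cannot go below 0.2 in this test. Of 13 such shares tested, over classes and groups of them, every adjusted p was 1.0. The shares of miRNA genes were 97.0 ± 0.49% (SD, n = 2) in lacking and 97.0 ± 0.40% (SD, n = 3) in carrying lines, and those of snoRNA genes 0.552 ± 0.012% and 0.547 ± 0.026%. FL and ΔLa-module had the highest MIR100 shares, so this order did not follow the La-module.

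Families were described by lists. In the miR-10/100 family, 4 of 5 genes were members and none passed the test. MIR10B had 27519 and 16434 CPM in ΔLa-module and ΔNTD against 19485 to 29063 in carrying lines. MIR99A had a log2 difference of 0.16 and MIR99B of 0.27. In the pair MIR221 and MIR222, which lie 1 after the other on the X chromosome within MIR222HG, MIR222 was at 36214 and 37953 CPM in ΔLa-module and ΔNTD against 26905 to 36497 in carrying lines (log2 difference 0.29), and MIR221 at 14440 and 12899 against 13059 to 17493 (-0.15). The 5 let-7 members had a median of 0.07, and none passed. MIRLET7G had 38874 CPM in ΔLa-module and 26897 in ΔNTD against 27081 to 33118 in carrying lines, so the lacking lines lay on either side of them.

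Of the miR-30 family, 5 of 6 genes were members, with a median log2 difference of -0.12. MIR30A had 5412 and 4519 CPM in ΔLa-module and ΔNTD against 5732 to 7301 in the carrying lines, with no overlap. MIR30B had a difference of -0.55, MIR30E of -0.12 and MIR30D of 0.02. The miR-23/24/27 clusters had 2 members of 6 genes. MIR27B was at -0.19 and MIR23B at -0.03. MIR29A, the only member of the miR-29 family, a family known for repressing collagen genes, had 7210 and 11086 CPM against 7842 to 13409, with a log2 difference of -0.25 (95% interval -0.84 to 0.34). MIR125B1 had 4678 and 4428 CPM against 3487 to 4109, and MIR125A had 4104 and 6055 against 3730 to 4715. For all of these the adjusted p was 0.999 (edgeR).

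RNA polymerase III transcripts were of interest because La binds their ends. The last 20 bases of the annotated transcripts are printed with the terminal run of T in capitals, from GENCODE release 44 on GRCh38. Each Y and vault RNA shown ended in a run of 4 T, and RMRP in none.
RNY1: ctgcacttgactagtcTTTT
RNY3: cttcacttgactagccTTTT
VTRNA1-1: gggcgctctccagtccTTTT
VTRNA1-2: gggtgctttccagctcTTTT
RMRP: gggctcattctcagcgcggc
RNY1 (chr7:148987136-148987248, minus strand), a Y RNA that binds the Ro and La proteins, had 233 CPM in ΔLa-module and 199 in ΔNTD, against 151 in FL, 188 in ΔNTR and 147 in ΔCTR. Both lacking lines were above the carrying lines, with a log2 difference of 0.42 (95% interval -0.19 to 1.02, adjusted p = 0.999, edgeR). Parental cells had 64.1 CPM, below all 5 induced lines. The neighbouring RNY3 (chr7:148983755-148983856, plus strand) had 14.7 and 20.9 CPM against 15.2 to 18.5, and the lacking lines lay on either side of the carrying lines. The 3 further Y RNA copies had log2 differences below 0, with the copy within CLK1 at -0.30 and the copy on chromosome 3 at -0.25.

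RMRP (chr9:35657754-35658017, minus strand), the RNA of RNase MRP, which takes part in rRNA processing, had 307 CPM in ΔLa-module and 464 in ΔNTD, while FL, ΔNTR and ΔCTR had 283, 282 and 298. The carrying lines were close together and ΔNTD was the high line, with a log2 difference of 0.42 (95% interval -0.18 to 1.03, adjusted p = 0.999, edgeR). VTRNA1-1 had 33.7 and 34.9 CPM against 22.5 to 33.7, and VTRNA1-2 62.5 and 72.5 against 55.9 to 69.9. VTRNA2-1 had 39.8 and 23.2 CPM against 32.6 to 39.0. RN7SK, RPPH1 and RN7SL2 were listed at 0 in all 5 libraries, as were MIR21 and MIR22, which are usually abundant. Reads that fit more than 1 gene or place are not counted in these tables, so these zeros are not levels.

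**Figure D3:**
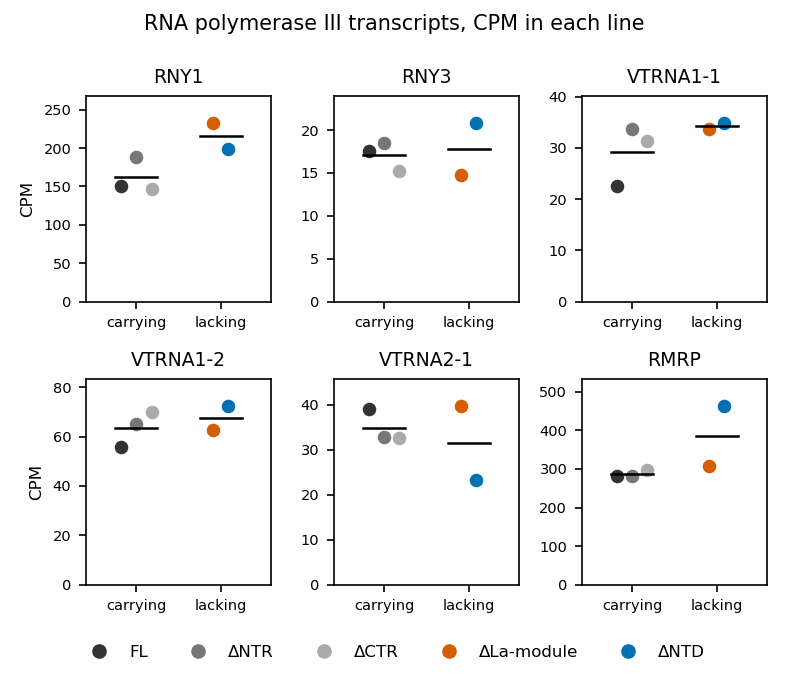
CPM (TMM-scaled, vertical axes from 0) of 6 transcripts of RNA polymerase III in each of the 5 lines, 1 point per library, with black bars for group means. RNY1 and RMRP are separate between groups, whereas RNY3, VTRNA1-1, VTRNA1-2 and VTRNA2-1 overlap.

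Binding of the variants to these RNAs was read from the pooled iCLIP peak lists, in which the authors summed peak scores over replicates and removed peaks of parental cells. The scores are not scaled to depth and have no replicates, so they were not tested. Peaks lay on 4 members for ΔLa-module and 2 for ΔNTD, and on 7, 2 and 4 for FL, ΔNTR and ΔCTR. RMRP carried most of the score, with 27 in ΔLa-module, 22 in ΔNTD and 150, 212 and 87 in FL, ΔNTR and ΔCTR. RNY1 had a score of 19 in FL, 21 in ΔCTR and 3 in ΔNTD, and RNY3 scored 4 in ΔLa-module, 19 in FL and 7 each in ΔNTR and ΔCTR. The whole lists held 636 peaks for ΔLa-module and 291 for ΔNTD, and 14334, 17180 and 15870 for FL, ΔNTR and ΔCTR. MIR320A, with a score of 3 in FL and in ΔCTR, was the only miRNA gene with a peak.

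None of the remaining snoRNAs, scaRNAs and mitochondrial tRNAs passed the test. Of the box C/D snoRNAs 29 of 314 listed genes were members, with a median of 0.07, and of the box H/ACA snoRNAs 4 of 214, also with a median of 0.07. SNORD104, the most counted snoRNA by mean of these libraries, had 1803 CPM in ΔLa-module and 1638 in ΔNTD against 1355 to 1552 in the carrying lines. Among H/ACA snoRNAs, SNORA73B, SNORA74A and SNORA77 had log2 differences of 0.06, 0.26 and 0.07, and the other member, SNORA58, was at -0.11. SCARNA3, which had 27.4 and 24.96 CPM against 18.4 to 23.3, SCARNA6 and SCARNA7 were at 0.32, 0.21 and 0.23, while the remaining scaRNA member, SCARNA14, was at -0.33. The mitochondrial tRNAs MT-TF, MT-TP and MT-TS2 were at 0.22, -0.07 and 0.19. Spliceosomal RNAs and the snoRNAs of GAS5 had no members.

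The main order of the lines did not follow the La-module. The distance between 2 lines was taken as the SD of the log2 difference over the 222 members. It was smallest between ΔNTR and ΔCTR, at 0.241, then between FL and ΔLa-module, at 0.312, a pair that differs in the La-module. The lacking lines ΔLa-module and ΔNTD were 0.591 apart, and 22 members differed 2-fold between them. Of the 6 pairs of a lacking with a carrying line, 5 were closer than that. FL and ΔNTD were the farthest apart, at 0.678, with 27 members differing 2-fold. The first principal component held 64.6% of the variance and set FL (-5.29) and ΔLa-module (-3.93) against ΔNTR (2.17), ΔCTR (2.84) and ΔNTD (4.22). The share of reads counted in genes was 36.8% in FL and 37.7% in ΔLa-module and 28.2 to 34.1% in the other 3 lines, and its part in this order was not tested.

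**Figure D4:**
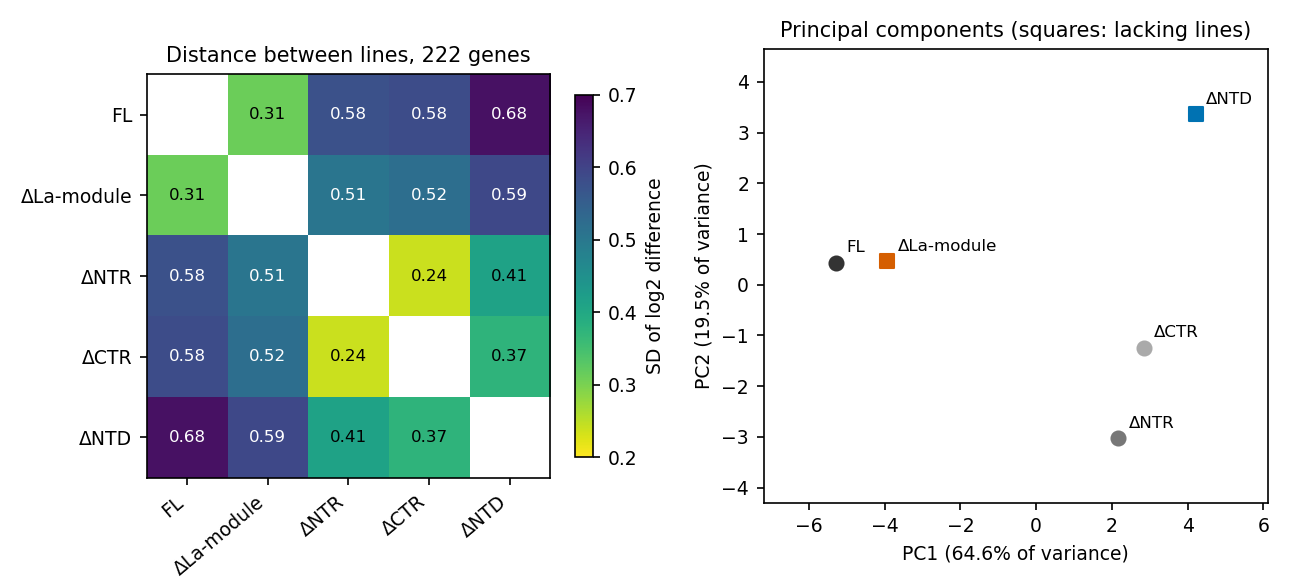
Left, SD of the log2 difference over 222 genes for each pair of lines. Right, first and second principal components of the same genes (axes in score units), squares for lacking and circles for carrying lines. FL and ΔLa-module lie together and ΔNTD lies far from ΔLa-module.

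Genes that vary along this order were chosen after their values were seen and are given as a description. SNORD48 (chr6:31835263-31835326, plus strand) had 1527 CPM in FL and 1582 in ΔLa-module, against 829 in ΔNTR, 642 in ΔCTR and 512 in ΔNTD. SNORD1B had 1434 and 1510 CPM in the same 2 lines, against 450 to 951 in the other 3. Parental cells had 403 CPM of SNORD48 and 361 of SNORD1B, below all induced lines. MIR148A had 312 CPM in FL and 244 in ΔLa-module against 92.95 to 139 in the other 3. MIR3681 had 306 and 303 CPM against 86.5 to 150. In the opposite direction, MIR4521 had 441 CPM in FL and 498 in ΔLa-module against 1072 to 1413 in the others, and the mitochondrial serine tRNA MT-TS2 had 200 and 246 CPM against 493 to 709. In all of these FL, a carrying line, was with ΔLa-module, a lacking one. The seed of miR-148a is also that of miR-152, whose gene MIR152 had 3785 and 4261 CPM in FL and ΔLa-module and 3005 to 4304 in the other lines.
miR-148a-3p: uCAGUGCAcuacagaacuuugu
miR-152-3p: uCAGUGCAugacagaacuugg
miR-4521: gCUAAGGAaguccugugcucag

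The design also allows the La-module to be compared with the NTR present (ΔLa-module against FL) and with the NTR absent (ΔNTD against ΔNTR), in libraries that are not shared. Each comparison has 1 library a side and no test. The median of the members was 0.07 with the NTR and -0.20 without it, on the log2 scale. These medians, and the signs below, depend on the TMM scaling. The signs were the same for 109 of 222 members (49.1%), 44 of them higher and 65 lower in both. Across genes, which are not independent replicates, the 2 differences had a Pearson r of 0.13 and a Spearman rho of 0.15. MIR129-1 was the only member that differed 2-fold with the NTR, with 14.3 CPM in ΔLa-module against 29.7 in FL. Without the NTR, 6 members differed 2-fold. SNORD6, SNORD37 and SNORD83A were higher in ΔNTD than in ΔNTR, by 2.00, 1.59 and 1.45, and MIR374A, SNORD1B and MIR542 were lower, by -1.06, -1.08 and -1.03. No gene differed 2-fold in both. SNORD41, at 0.55 and 0.70, and MT-TL1, at 0.58 and 0.76, were the 2 members that differed by at least 0.5 in the same direction in both.

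Many of these small RNAs lie inside longer genes, whose transcripts were counted in 1 paired-end library of 150 nt reads per line, called PE150. Of the members, 186 lay in a gene on the same strand and 168 in a host that could be tested, 138 hosts in all. An annotated same-strand exon of a host overlapped 15 members, among them MIR125A, MIR130B, MIR221, MIR29A, MIR93, SNORD37 and SNORD48. Reads that also fell on such an exon were ambiguous and not counted. No host was called (edgeR, 0.0% of 18017 genes called), and 9 had an unadjusted p under 0.05, where 4.6% of all genes did. The hosts had a median log2 difference of -0.0014, from -0.66 to 0.46. LINC00472, the host of MIR30A, had the lowest p, with a log2 difference of -0.38 ± 0.13 (SE; unadjusted p = 0.010 and adjusted p = 0.971, edgeR), beside -0.39 for MIR30A in SE50. CARMN, the host of MIR145, was at -0.39, beside -0.48 for the miRNA. The other hosts with an unadjusted p under 0.05 (edgeR) went either way. On the same side as their small RNAs were TENM4 (-0.23, MIR708 -0.27) and ZNF653 (0.46, MIR7974 0.10). So were DLEU2 (-0.19, MIR15A -0.35 and MIR16-1 -0.66) and MIR181A1HG (-0.29, MIR181A1 -0.09 and MIR181B1 -0.34). Opposite were SNHG16 (0.17, SNORD1B -0.14) and FBXL18 (-0.21, MIR589 0.01). SPACA6, at -0.38, lay opposite to MIR125A (0.29) and MIR99B (0.27) but not to MIRLET7E (-0.08). Over the members with a tested host, the difference of the small RNA and that of the host had a Pearson r of 0.11 across genes, given as a description.

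The labelled cell type was checked by miRNA marker lists. Of 7 glioma and astrocytic miRNA genes 5 were members, and MIR100, MIR222, MIR10B and MIR221 were among the 10 most counted. MIR21 and MIR125B2 were the 2 listed at 0. Of 8 neuron genes MIR128-1 alone was a member, with 241 to 340 CPM. Blood, liver and muscle lists had no members, with summed counts of 70 to 225, 15 to 62 and 2 to 7 per library. At 0 in all 5 libraries were 5 of 8 neuron, 5 of 8 blood, 3 of 4 liver and 4 of 6 muscle genes. These lists include miRNAs with more than 1 locus, and reads that fit more than 1 place were not counted. The zeros are therefore not levels, and low sums do not show that a miRNA was absent. Of 8 epithelial genes MIR200B and MIR200C were members. MIR200C had 53.3 CPM in ΔLa-module and 51.8 in ΔNTD against 36.7 to 50.5 in the carrying lines, and the summed list ran from 460 to 791 counts.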

How the data were processed

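Input RNA of 6 U-87 MG lines was compared in SE50 libraries, with PE150 libraries for host genes and pooled iCLIP peak lists for binding. For total RNA sequencing, the study's methods state that reads were trimmed and aligned with STAR to GRCh38, and that STAR gave the counts per gene. The methods do not describe small RNA libraries. The deposited tables of both kinds of library hold counts per gene as whole numbers, not normalized, in unstranded, forward and reverse columns. The forward column was used for SE50 and the reverse for PE150. Reads matching more than 1 gene or place were not in the counts, and were 40.4 to 54.0% (ambiguous) and 13.6 to 18.5% (multimapping) of SE50 reads. The deposited peak score is a whole number that the authors summed over replicates. 62625 of 62750 gene rows matched GENCODE release 44, and 125 did not.

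Genes passing filterByExpr were tested with edgeR 4.0.16 (R 4.3.3): TMM factors, quasi-likelihood test, 2 lacking against 3 carrying lines, Benjamini-Hochberg over all genes tested. CPM are TMM-scaled, and can exceed the raw share of counts. Differences between 2 lines are of log2(CPM + 1). Alternatives used DESeq2 1.42.0, other scaling, filters, counting columns and groupings, with each line left out. The edgeR test of SE50 was checked on simulated counts with known changes. It recovered 0.4% of members changed 1.5-fold, 20% of those changed 2-fold and 93.2% of those changed 3-fold. Members, lists and tests were chosen with earlier results of these data known. Genes were named by a rule: members past the test or, failing these, up to 12 of lowest p in each direction, the 10 with the highest mean CPM, and the 3 highest of each list. Intervals rest on the spread between lines, with variance shared over genes. Nothing in the sources used here says that libraries came from separate cultures beyond the lines.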

Additional observations from a re-analysis of the deposited data

Results flagged for a closer look

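The median log2 difference of the 222 small RNA genes had opposite signs with and without the NTR: it was 0.07 for ΔLa-module against FL and -0.20 for ΔNTD against ΔNTR, a gap of -0.28. For miRNA genes the medians were 0.04 and -0.28, a gap of -0.32. These medians depend on the scaling, which shifts the members of a comparison together. The TMM factors were 0.843 in FL and 0.813 in ΔLa-module, and 1.07 in ΔNTR and 1.18 in ΔNTD. The gap was not computed under another scaling. With 1 library on each side the gap was not tested.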

How the results depend on the processing

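No paired analysis was possible because each line had 1 library per protocol and the labels give these libraries no replicate number, and the pooled peak lists carry no replicates. With adjusted p under 0.05 no member was called under the other scalings, filters, counting column, DESeq2, NTR covariate or parental cells added. Leaving out 1 carrying line gave 0 higher and 0 lower members. Without ΔLa-module or without ΔNTD, 1 lacking library remained, so the statement that no member was called does not cover these fits. Without ΔLa-module, the log2 differences of SNORD83A and SNORD6 rose to 1.67 and 1.51, resting on the 1 ΔNTD library. The median of the members ran from -0.18 to 0.063 and that of miRNA genes from -0.24 to 0.063 with 1 line left out, that of scaRNA genes from 0.094 to 0.34, and the difference in the share of mitochondrial tRNAs from -0.033 to 0.057 percentage points. The extremes were without ΔLa-module and without ΔNTD, except for the upper scaRNA value, which was without ΔNTR. Members with all lacking lines above all carrying lines were 6 by library totals (2.7%, beside 5.67% of all genes tested) and 24 with a filter of 50 counts (10.8%, beside 10.5%), and members with all below were 22 by library totals (9.91%, beside 9.01%). With 1 line left out these counts necessarily grew, the former to between 17 and 64 (7.66 to 28.8%, beside 12.97 to 24.6% of all genes) and the latter to between 15 and 81 (6.76 to 36.5%, beside 14.1 to 25.2%). The snoRNA share differed by 0.062 percentage points with parental cells added. With 1 carrying PE150 library left out, 0 to 3 hosts were called, the 3 being LINC00472, SREBF1 and TLE3 without ΔNTR. The share of all PE150 genes called in that fit was not computed, so the 3 hosts are given as a description. The signs of 32 of the 61 named genes, and of 21 of the 24 named by low p, held in all 14 alternative fits. Members at an unadjusted p under 0.05 were 2 by library totals (0.901%, beside 1.34% of all genes) and 13 with parental cells added (5.86%, beside 3.89%), and 1 to 20 with 1 line left out (0.45 to 9.01%, beside 2.41 to 4.61%).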

Other observations

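Small RNA genes under the threshold of 50 counts were called in some alternatives, and were chosen after their values were seen. MIR1298 had 181 counts in FL and 0 to 3 in each of the other 4 lines and in parental cells. It was called lower in lacking lines with no filter, though FL was the only line that held it. MIR607 had 68 counts in ΔLa-module and 24 in FL, 2 in ΔNTD, 1 in ΔNTR, 1 in ΔCTR and 0 in parental cells. MIR607 was called higher in lacking lines with no filter and with the NTR covariate. Both therefore follow the pair of FL and ΔLa-module or FL alone, not the La-module.

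The distance of each line from parental cells over the 222 genes (SD of the log2 difference, 6 libraries scaled together) was 0.430 for ΔCTR, 0.453 for ΔNTR, 0.572 for ΔNTD, 0.651 for FL and 0.669 for ΔLa-module. Of small RNA genes outside the members, 16 had at least 50 counts in both lacking lines but fewer in a carrying line. The reverse, at least 50 in all carrying lines but fewer in a lacking line, held for 5. These are raw counts, and the libraries with the fewest counts in genes, ΔCTR (6181270) and ΔNTR (6707913), were carrying lines. The same tally over all genes was not computed, so the 16 and 5 do not show an excess in lacking lines.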
